A study of Mus musculus with 6 samples.

Results

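Kinesin motor genes were examined in ribosome-bound RNA of mouse cerebellar Purkinje neurons with and without the splicing factor RBM17. The set was every row of the gene count table whose symbol begins with Kif and a digit and whose mean was at least 50 counts over the 6 libraries. Of 23420 rows, 38 carried such a symbol and 31 met the count minimum. The 31 were divided by known function into 15 transport motors of axons and dendrites, 7 mitotic motors, 6 kinesins of cilia and Hedgehog signalling, and 3 others. Kif4 with a mean of 62.7 counts and Kif26a with 74.0 counts stood just inside the minimum, and Kif23 with 47.0 and Kif18b with 39.2 counts just outside it. All 31 genes passed the filter on low counts and were tested.

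The study purified tagged ribosomes with their bound RNA from the cerebellum (BacTRAP), with 1 cerebellum for each library. The conditional knockout (cKO) group of 3 libraries had the genotype Pcp2-BacTRAP; Pcp2-Cre; Rbm17 f/-, that is, a floxed and a null Rbm17 allele with Cre recombinase. The control group of 3 libraries had the genotype Pcp2-BacTrap; Rbm17 f/+, that is, a floxed and a wild-type allele and no Cre. All mice were C57BL/6 and 4 weeks old, and all carried the ribosome tag. The promoter of Pcp2, a Purkinje cell gene, drove both the tag and the Cre, and Cre and the null allele were present in cKO alone, so each difference below is one between whole genotypes.

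The gene counts summed to between 145234116 and 160571518 per cKO library and to between 140110897 and 149552228 per control library. Rbm17, the targeted gene, had 25.7, 25.6 and 26.3 CPM (counts scaled to library size, corrected by the TMM method) in cKO and 41.2, 42.5 and 41.3 CPM in control, so the groups did not overlap. It fell by 0.69 on the log2 scale (SE 0.09; edgeR quasi-likelihood test, adjusted p = 0.0016). The Purkinje marker Pcp2 stood at 316.8, 421.3 and 458.9 CPM in cKO and at 1098, 1044 and 1013 CPM in control. Of 20 Purkinje markers 11 were called lower at an edgeR adjusted p under 0.05, or 55.0%, where 3.85% of all genes tested were. The median log2 fold change of the 20 was -0.54. The 20 markers summed to 24730, 26523 and 28185 CPM in cKO and to 51669, 41644 and 38327 CPM in control. Of 16 microglia markers 9 were called higher, or 56.2%, where 4.03% of all genes tested were. The 16 summed to 218.4, 131.8 and 159.3 CPM in cKO and to 70.6, 88.7 and 100.9 CPM in control. None of 14 granule cell markers was called in either direction, where 7.87% of all genes tested were. No marker of these 3 lists was at 0 over the libraries, so the pull-down held RNA of several cell types. In such bulk samples, fewer cells of a type and less RNA per cell cannot be told apart.

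Kinesins are motor proteins that use ATP to move along microtubules or to reshape microtubule ends. In neurons, kinesins of several families carry vesicles, mitochondria and receptors outward into axons and dendrites, and a Purkinje cell, with its large dendritic tree and long axon, depends on such transport. Other kinesins build the spindle and separate chromosomes in dividing cells, which mature neurons do not do, and still others work in cilia. Several transport kinesins have small cassette exons that neurons include or skip, which adds or removes a few codons.

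Kif1a, a motor for synaptic vesicle precursors and dense-core vesicles, has 3 such exons in these data, and Kif3a, Kif13b and Kif21a have exons of the same kind. Those whose inclusion is described below are printed here from the GENCODE M21 transcripts (build mm10), read 5′ to 3′ on the strand of the gene, with the cassette exon in capitals and 10 bases of each neighbouring exon in lower case. Only exons that lie wholly in the coding sequence of an annotated transcript were printed, and all of these were a multiple of 3 bases long. The Kif21b exon described below was not among them. The first pair of Kif1a exons has the same neighbours, so that either one can be spliced in at the same place of the transcript.

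Kif1a, 24 bases, chr1:93026832-93026855, minus strand: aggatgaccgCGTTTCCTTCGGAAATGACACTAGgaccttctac
Kif1a, 27 bases, chr1:93034546-93034572, minus strand: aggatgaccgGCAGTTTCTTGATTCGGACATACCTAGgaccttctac
Kif1a, 27 bases, chr1:93065552-93065578, minus strand: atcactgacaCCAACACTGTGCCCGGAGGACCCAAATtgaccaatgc
Kif3a, 9 bases, chr11:53590717-53590725, plus strand: aagagaagggACCAAGCAGgtaaaaagaa
Kif13b, 63 bases, chr14:64800345-64800407, plus strand: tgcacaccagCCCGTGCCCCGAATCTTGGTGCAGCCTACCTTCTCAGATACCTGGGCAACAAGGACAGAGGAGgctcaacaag
Kif21a, 39 bases, chr15:90976471-90976509, minus strand: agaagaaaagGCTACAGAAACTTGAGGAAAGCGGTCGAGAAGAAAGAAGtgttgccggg

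No kinesin gene of the 31 was called higher or lower in cKO at an adjusted p under 0.05 (edgeR quasi-likelihood test), where 7.87% of all 16067 genes tested were called, 4.03% as higher and 3.85% as lower. At an unadjusted p under 0.05 there were 3, Kif1c and Kif22 with higher and Kif3c with lower values in cKO, where 22.1% of all genes passed that limit. limma-voom also called none, and DESeq2 called those 3 genes at an adjusted p under 0.05, where it called 12.7% of all genes. The libraries of both groups did not overlap in 5 of the 31 genes (Kif17, Kif1c, Kif3c, Kif22 and Kif9), or 16.1%, where they did not overlap in 28.4% of all genes. The median log2 fold change of the 31 genes was 0.01, the same as that of all genes, with 16 values above and 15 below 0.

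**Figure D1:**
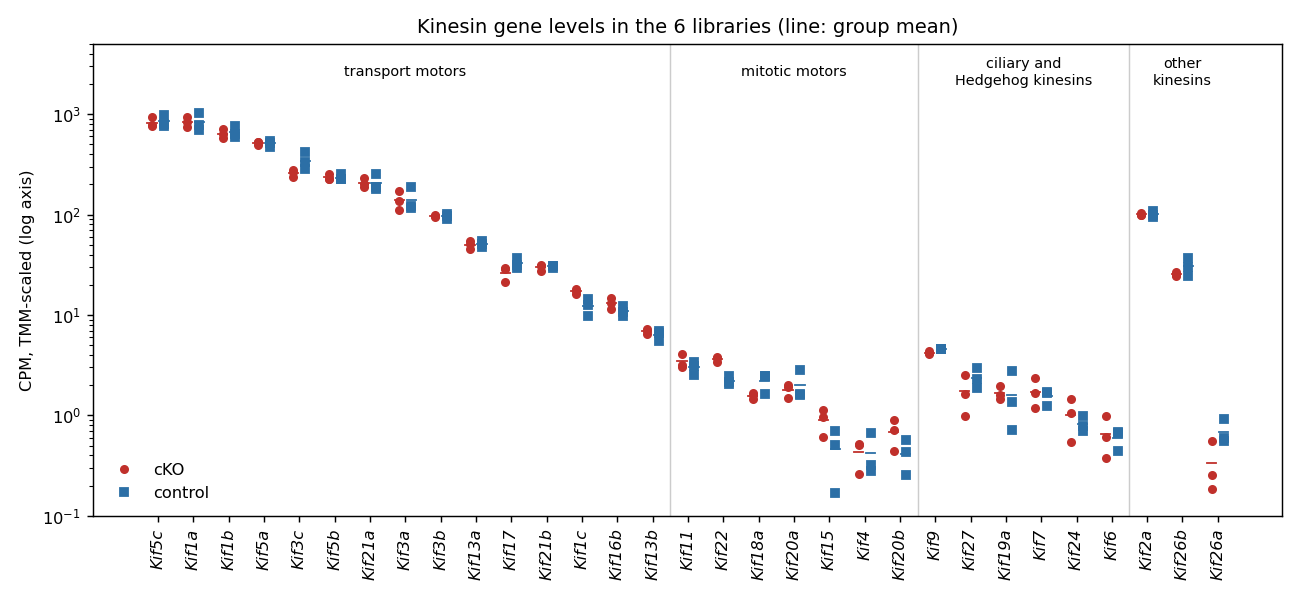
Level of each of the 31 kinesin genes (CPM, log axis), 1 point per library, with cKO as red circles left of control as blue squares and a line at each group mean. Transport motors span about 6 to over 1000 CPM, mitotic motors lie below 5 CPM, and the groups lie side by side for most genes.

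Transport motors made up nearly all of the kinesin RNA, with levels between 0.53 and 115.5 CPM per kb of exon in cKO and between 0.49 and 119.1 CPM per kb in control. Their summed level was 4234, 3650 and 3836 CPM in cKO and 4683, 3776 and 3617 CPM in control. The groups overlapped, and the highest library of each group was replicate 1. None of the 15 transport motors was called, their median log2 fold change was -0.00, and the middle 50% of them lay between -0.04 and 0.02. The 95% interval of the log2 fold change lay wholly within 0.5 of no change in 11 of 15, or 73.3%, against 39.7% of all genes tested and 62.6% of the genes with a mean of at least 1000 counts. For those 11 genes a change beyond 0.5 on the log2 scale in either direction therefore lay outside the interval.

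Of the heavy chains of conventional kinesin, which carry mitochondria and many vesicles, Kif5c had the highest level per length of the 31 genes. Kif5c had 926.6, 785.3 and 763.0 CPM in cKO and 988.1, 792.5 and 770.7 CPM in control. Its log2 fold change was -0.04 (SE 0.12, 95% interval -0.31 to 0.22; edgeR adjusted p = 0.88). The groups overlapped, and scaled to its exon length it stood at 115.5 CPM per kb in cKO and 119.1 CPM per kb in control, rank 241 among 15032 genes with a length. Kif5a, a neuronal heavy chain mutated in human hereditary spastic paraplegia, had 524.6, 498.1 and 528.5 CPM in cKO and 543.3, 471.9 and 517.2 CPM in control. Its log2 fold change was 0.02 (95% interval -0.18 to 0.21; edgeR adjusted p = 0.94), and all 3 cKO libraries lay within the range of the control libraries. Kif5b, the heavy chain that most cell types use, averaged 235.9 ± 14.7 CPM in cKO and 233.6 ± 15.4 CPM in control (SD, n = 3 each).

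Kif1a had 936.2, 752.0 and 833.2 CPM in cKO and 1029, 772.1 and 699.4 CPM in control. The control libraries spread over a wider range than the cKO libraries and held the highest and the lowest value. The log2 fold change was 0.01 (SE 0.14, 95% interval -0.30 to 0.33; edgeR adjusted p = 0.97), and Kif1a was second to Kif5c among the motors by level per length, at 90.1 CPM per kb in cKO and 89.3 CPM per kb in control. Its relative Kif1b, which carries mitochondria and synaptic vesicle precursors, averaged 640.6 ± 69.6 CPM in cKO and 663.0 ± 93.3 CPM in control (SD, n = 3 each). Both genes had their highest value of each group in replicate 1. Across the transport motors, the highest cKO library was replicate 1 in 10 of 15, the highest control library replicate 1 in 11 of 15, and the lowest control library replicate 3 in 9 of 15. The granule cell markers ran the other way, with sums of 3945, 6479 and 5550 CPM in cKO and of 4631, 5661 and 6522 CPM in control, and the part of granule cell RNA in these levels was not tested.

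Kif3a pairs with Kif3b or with Kif3c in kinesin-2 motors, which serve transport in axons and the building of cilia. Kif3a had 173.4, 112.3 and 136.4 CPM in cKO and 187.2, 115.1 and 121.4 CPM in control, with overlap of the groups. Its log2 fold change was -0.01 (SE 0.20, 95% interval -0.44 to 0.43; edgeR adjusted p = 0.99), the widest interval of the 5 transport motors with the highest level per length. Kif3b averaged 97.2 ± 2.6 CPM in cKO and 96.1 ± 6.2 CPM in control (SD, n = 3 each). Kif3c, the partner found mainly in neurons, had 235.4, 262.5 and 276.2 CPM in cKO and 415.9, 333.7 and 284.4 CPM in control. Every cKO value was the lower, but the gap between the nearest pair was small beside the spread of the control libraries. The log2 fold change was -0.42 (SE 0.13, 95% interval -0.71 to -0.12), which did not pass the edgeR test (adjusted p = 0.090). Without 1 library it ran from -0.26 without control replicate 1 (edgeR adjusted p = 0.16) to -0.56 without control replicate 3 (edgeR adjusted p = 0.032). Spliced reads over annotated introns are given in RPM, scaled to all junction reads of the library and corrected by the TMM factors of the gene counts. In these reads Kif3c had 70.5, 79.9 and 85.7 RPM in cKO and 112.6, 105.7 and 78.3 RPM in control, with overlap of the groups. Kif3c overlaps antisense genes in the annotation, and the strand setting of the counts is not given in the sources used here.

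Kif17, a kinesin-2 motor that moves NMDA receptor vesicles in dendrites, was singled out after its values were seen, as was Kif1c. Kif17 had 21.5, 28.7 and 29.3 CPM in cKO and 36.7, 31.7 and 29.5 CPM in control. The groups did not overlap, but cKO replicate 3 and control replicate 3 lay almost level. The log2 fold change was -0.30 (SE 0.14, 95% interval -0.61 to 0.01; edgeR adjusted p = 0.24), and without cKO replicate 1 it was -0.17. Kif17 overlaps Sh2d5 on the same strand. The order of the 6 libraries by Kif3c and by Kif17 was the order by summed Purkinje markers, the same in every place. These were the only members of the 31 with that order, which 1.11% of all genes showed, and the part of the Purkinje RNA share in both genes was not tested.

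Kif1c, which moves vesicles between Golgi and endoplasmic reticulum and carries dense-core vesicles in neurons, had 16.3, 18.3 and 17.3 CPM in cKO and 9.70, 12.5 and 14.5 CPM in control. Every cKO value was the higher, and control replicate 1 was the lowest. The log2 fold change was 0.50 (SE 0.15, 95% interval 0.16 to 0.84), which did not pass the edgeR test (adjusted p = 0.078). DESeq2 gave 0.49 with an adjusted p of 0.027, and without control replicate 3 the edgeR value was 0.62 with an adjusted p of 0.047. Over the edgeR settings without 1 library it ran from 0.36 to 0.62.

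The remaining transport motors stood close to their control level. Kif21a and Kif21b, which also regulate microtubule growth, averaged 207.8 ± 22.5 and 29.8 ± 2.2 CPM in cKO and 208.2 ± 41.2 and 30.5 ± 0.71 CPM in control (SD, n = 3 each). Kif13a and Kif13b, carriers of endosomal and membrane cargo, averaged 50.1 ± 4.4 and 6.88 ± 0.35 CPM in cKO and 51.0 ± 3.7 and 6.33 ± 0.76 CPM in control. Kif16b, a motor of early endosomes, averaged 13.2 ± 1.7 CPM in cKO and 10.9 ± 1.2 CPM in control, a log2 fold change of 0.27 (SE 0.15; edgeR adjusted p = 0.31).

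**Figure D2:**
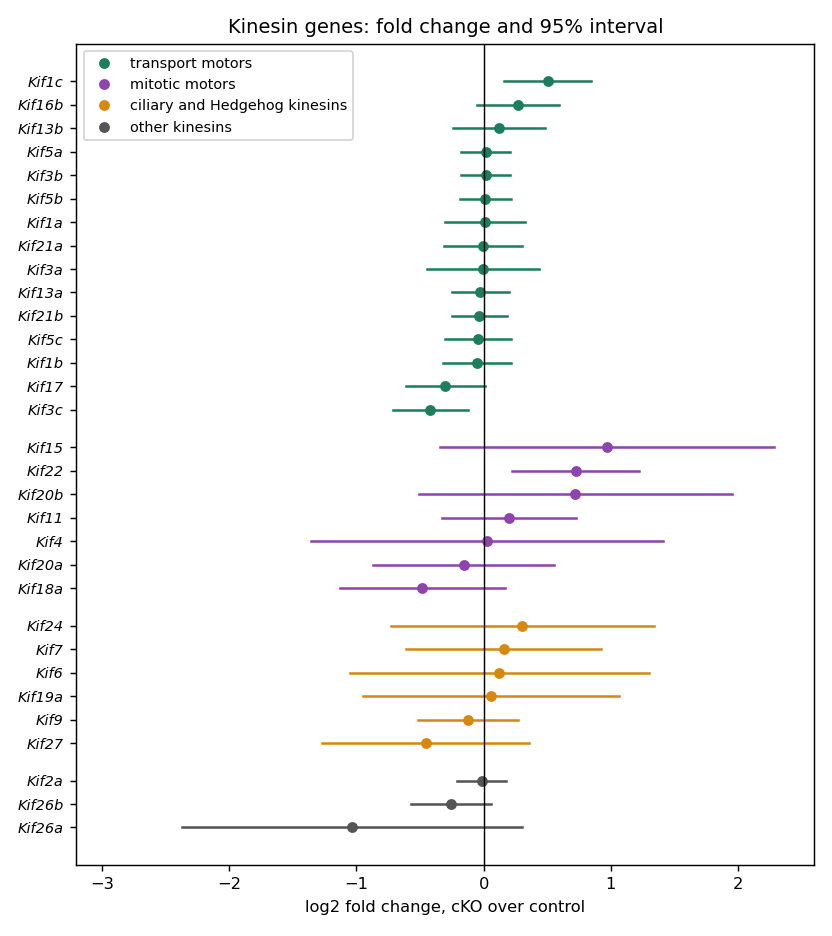
Log2 fold change of cKO over control for each of the 31 kinesin genes, with its 95% interval from the edgeR fit, ordered within 4 classes by colour. Transport motors cluster at 0 with short intervals and run from -0.42 (Kif3c) to 0.50 (Kif1c), while the intervals of the mitotic motors are wider and reach from -0.48 (Kif18a) to 0.97 (Kif15).

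Mitotic motors were scarce in both groups, with levels between 0.08 and 0.75 CPM per kb in cKO and between 0.04 and 0.46 CPM per kb in control. The 7 genes summed to 13.6, 11.4 and 12.5 CPM in cKO and to 12.6, 10.0 and 9.53 CPM in control, with overlap of the groups. None was called by edgeR, their median log2 fold change was 0.20, and 5 of 7 values lay above 0. None of the 7 intervals lay wholly within 0.5 of no change. For each gene a rise of that size, a fall of that size or both therefore lay inside the interval. With control replicate 3 left out the median was 0.44. It was 0.72 over the 11 mitotic motors with a mean of at least 10 counts and 0.02 over those with at least 200, so the class value turned on which genes were counted. Beside this class, 2 of 22 markers of proliferating cells rose (Mki67 and Bub1b), or 9.1%, where 4.03% of all genes were called higher, with a median log2 fold change of 0.30, and the 22 summed to 86.9, 68.6 and 77.9 CPM in cKO and to 78.5, 69.7 and 71.4 CPM in control. Their part, and that of the microglia markers, in the mitotic motors was not tested.

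By the counts Kif20a, which acts in cytokinesis, had the highest level per length of the class in control, followed by Kif22 and Kif11. Kif20a had 1.93, 1.51 and 1.99 CPM in cKO and 2.81, 1.59 and 1.64 CPM in control, a log2 fold change of -0.15 (SE 0.32; edgeR adjusted p = 0.84). The groups overlapped, and without control replicate 1 the sign turned to 0.16. In spliced reads Kif20a had 1.89, 0.90 and 1.11 RPM in cKO and 1.45, 0.53 and 0.45 RPM in control. That was a log2 ratio of 0.68, opposite in sign to the counts, with overlap of the groups. Only 3 of its 18 annotated introns had reads in every library, and Kif20a overlaps the antisense gene Cdc23. Kif11, the motor that pushes spindle poles apart, had 4.11, 3.19 and 3.03 CPM in cKO and 3.40, 3.09 and 2.51 CPM in control. Its log2 fold change was 0.20 (SE 0.24, 95% interval -0.33 to 0.73; edgeR adjusted p = 0.69), with overlap of the groups. Without cKO replicate 1 it was 0.05 and without control replicate 3 it was 0.06. Reads crossed all 21 annotated introns of Kif11 in every library, so the gene was read along its whole length.

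Kif22 encodes a chromokinesin that pushes chromosome arms toward the spindle equator. It had 3.83, 3.40 and 3.76 CPM in cKO and 2.47, 2.04 and 2.14 CPM in control. The groups did not overlap, and the libraries within each group were close together. The log2 fold change was 0.72 (SE 0.22, 95% interval 0.23 to 1.22), which did not pass the edgeR test (adjusted p = 0.083), while DESeq2 gave an adjusted p of 0.024. Over the settings without 1 library it ran from 0.65 to 0.81.

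Most spliced reads of Kif22 lay at the end of the gene. Of 1793 reads over its 13 annotated introns, 1612, or 89.9%, crossed the last 2, where the next highest share of a motor in its 2 most used introns was 41.6% (Kif3c). The last 2 introns, chr7:127027991-127028069 and chr7:127027841-127027930 on the minus strand, had 451, 332 and 474 reads in cKO and 120, 98 and 137 reads in control. Scaled as above this was 5.03 ± 0.56 RPM in cKO and 1.64 ± 0.30 RPM in control (SD, n = 3 each), a ratio of 3.07. The groups did not overlap (exact permutation test, 2-sided p = 0.10, the smallest that 3 against 3 libraries allow). The other 11 introns together had 42, 43 and 47 reads in cKO and 0, 29 and 20 reads in control, which scaled to 0.53 ± 0.05 RPM in cKO and 0.22 ± 0.20 RPM in control (SD, n = 3 each), a ratio of 2.43. There too the groups did not overlap (exact permutation test, 2-sided p = 0.10), but these reads were few and control replicate 1 had none. Any separation of 3 against 3 libraries gives this p, so it adds nothing to the lack of overlap. The first 2 introns had no read in any library. The antisense gene Gm31749 overlaps Kif22 in the annotation. Whether the reads at the end of the gene come from the whole Kif22 transcript was not tested.

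**Figure D3:**
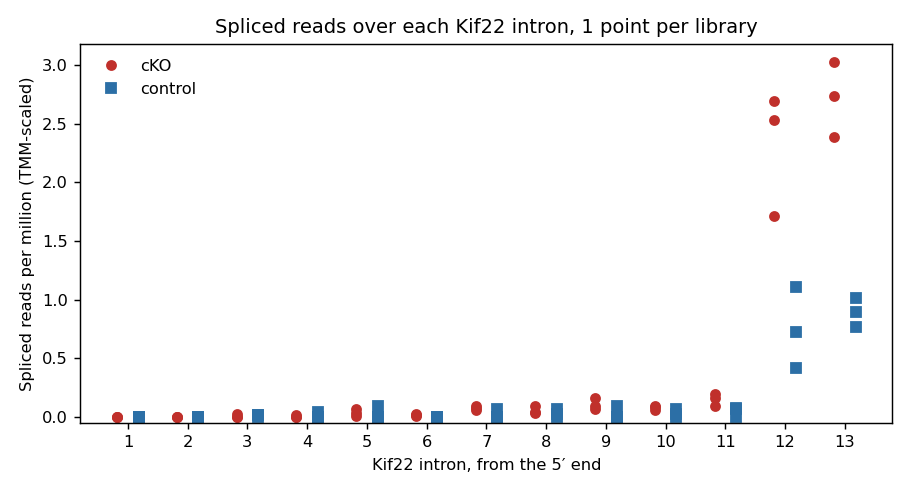
Spliced reads, in RPM of all junction reads with TMM correction, over each of the 13 annotated introns of Kif22, numbered from the 5′ end, 1 point per library, with cKO as red circles left of control as blue squares. Introns 12 and 13 carry nearly all reads, and in both every cKO point lies above every control point.

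The other mitotic motors were at or below about 2.5 CPM in every library. Kif18a, which aligns chromosomes, averaged 1.57 ± 0.10 CPM in cKO and 2.19 ± 0.49 CPM in control. Kif15, a spindle motor, averaged 0.90 ± 0.27 CPM in cKO and 0.46 ± 0.27 CPM in control, and none of its 34 introns had reads in every library. Kif20b and the chromokinesin Kif4 averaged 0.69 ± 0.23 and 0.43 ± 0.15 CPM in cKO and 0.42 ± 0.16 and 0.42 ± 0.21 CPM in control (SD, n = 3 for each gene and group). Their edgeR adjusted p values ranged from 0.38 to 0.98. Below the count minimum, Kif2c, a microtubule depolymerase of the kinetochore, had 20, 36 and 33 counts in cKO and 10, 2 and 1 counts in control (edgeR adjusted p = 0.18).

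Kinesins of cilia and Hedgehog signalling stood between 0.11 and 0.98 CPM per kb in cKO and between 0.10 and 1.07 CPM per kb in control. Kif6, Kif7, Kif9, Kif19a, Kif24 and Kif27 had log2 fold changes between -0.45 and 0.30, with a median of 0.09, and none was called. Kif9, a motor of motile cilia and the highest of the 6 per length, averaged 4.20 ± 0.16 CPM in cKO and 4.58 ± 0.03 CPM in control (SD, n = 3 each). Its groups did not overlap, with a log2 fold change of -0.13 (SE 0.18; edgeR adjusted p = 0.75). In spliced reads the groups of Kif9 overlapped, with a log2 ratio of 0.0087. Kif7, a regulator of Hedgehog signalling, averaged 1.73 ± 0.58 CPM in cKO and 1.55 ± 0.25 CPM in control. None of 11 markers of ependymal and multiciliated cells was called, where 7.87% of all genes tested were. Of the 3 remaining kinesins, Kif2a, which takes microtubules apart and limits axon branches, had 99.0, 99.0 and 102.6 CPM in cKO and 108.7, 99.6 and 95.2 CPM in control, with a log2 fold change of -0.01 (SE 0.09). For Kif26a and Kif26b, kinesins with an atypical motor domain, the log2 fold change was -1.03 (SE 0.60; edgeR adjusted p = 0.36) for Kif26a and -0.26 (SE 0.14; edgeR adjusted p = 0.33) for Kif26b.

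Spliced reads over annotated introns gave a second measure of level for the 31 genes. It came from the same libraries and used the same TMM factors, so it is not independent of the counts. The log2 ratio of cKO over control had the same sign as in the counts in 21 of 31 genes, with a median of -0.00 in transport motors and 0.68 in mitotic motors, whose reads are few. For Kif1c the log2 ratio was 0.44 with overlap of the groups, for Kif3c -0.33 and for Kif17 -0.39. Kif22 had 5.55, 5.03 and 6.11 RPM in cKO and 1.74, 1.69 and 2.15 RPM in control over all its introns, a log2 ratio of 1.58 against 0.72 in the counts of the whole gene.

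Genes that work with kinesins were examined as 4 lists. Of 27 cargo adaptors 1 was called, as lower, or 3.7%, where 3.85% of all genes were called lower. It was Trak2, which links kinesin-1 to mitochondria. Trak2 had 101.8, 127.7 and 116.4 CPM in cKO and 160.5, 166.3 and 157.2 CPM in control, and every cKO value was under every control value. It fell by 0.48 on the log2 scale (SE 0.10; edgeR adjusted p = 0.016). The call was lost without cKO replicate 3 (edgeR adjusted p = 0.078) and without control replicate 2 (edgeR adjusted p = 0.073), with log2 fold changes of -0.49 and -0.48. Its relative Trak1, named after its values were seen, averaged 284.4 ± 1.3 CPM in cKO and 255.3 ± 5.6 CPM in control (SD, n = 3 each; edgeR adjusted p = 0.28). The median log2 fold change of the adaptors was -0.01, with 13 values above and 14 below 0.

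None of 6 light chains and accessory subunits was called by edgeR, with 1 higher and 1 lower at an unadjusted p under 0.05, or 33.3%, where 22.1% of all genes passed that limit. The kinesin light chain Klc1 had 396.4, 375.3 and 381.6 CPM in cKO and 332.0, 335.1 and 343.7 CPM in control, a log2 fold change of 0.19 (SE 0.08; edgeR adjusted p = 0.19). Klc2 had 170.1, 237.6 and 249.7 CPM in cKO and 278.7, 260.3 and 273.3 CPM in control, a log2 fold change of -0.31 (SE 0.13; edgeR adjusted p = 0.21). The groups did not overlap in either light chain, and cKO replicate 1 was the farthest from control in both. Of 31 genes of cytoplasmic dynein and dynactin, the motor that moves in the opposite direction, none was called, with 3 higher and 1 lower at an unadjusted p under 0.05, or 12.9%, against 22.1% of all genes, and a median log2 fold change of 0.01. Pafah1b1, the dynein regulator LIS1, averaged 504.5 ± 7.4 CPM in cKO and 526.3 ± 75.3 CPM in control, and the dynactin subunit Actr1b 408.6 ± 18.4 CPM in cKO and 439.5 ± 25.8 CPM in control (SD, n = 3 each). Among 5 kinesins whose names fall outside the rule none was called, with 1 lower at an unadjusted p under 0.05. Of the 2 with the most CPM, Kifc2 had 68.2, 108.3 and 91.2 CPM in cKO and 110.7, 112.5 and 115.7 CPM in control, with no overlap of the groups. Kifc3 had a log2 fold change of 0.19 (SE 0.13; edgeR adjusted p = 0.45). DESeq2 called 3 genes higher and 3 lower over the 69 genes of the 4 lists, where it called 12.7% of all genes, and limma-voom 0 higher and 1 lower.

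RBM17 takes part in the choice of 3′ splice sites, and the series title names cryptic splicing, so the splice junctions of the kinesin genes were compared next. In 21 of the genes 258 junctions could be tested against the other junctions that share their donor or acceptor. None was called at an adjusted p under 0.05 with a change in share of at least 5 percentage points (edgeR diffSpliceDGE), where 0.751% of all 112047 junctions were called. At an unadjusted p under 0.05 there were 27, or 10.5%, where 13.5% of all junctions passed that limit. A higher share in cKO was found in 21 of the 27, or 77.8%, against 80.9% of those over all junctions.

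Cassette exons were measured as inclusion, the mean reads of both junctions into the exon divided by that mean plus the reads that skip it. Other exons spliced at the same place are left out of that ratio, so that it is a share of the forms with the exon and the form without it. In 9 kinesin genes 17 annotated exons had at least 20 reads in every library and a pooled inclusion between 5% and 95%. In 5 of them, or 29.4%, the groups did not overlap and the means differed by at least 5 points, 3 with higher and 2 with lower inclusion in cKO, where 25.2% of 3756 such exons in all genes did so. The exons described here were chosen after their values were seen, and none of their skipping junctions passed the junction test.

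The exon of Kif1a at chr1:93065552-93065578 had an inclusion of 37.7%, 43.8% and 37.2% in cKO and of 57.7%, 54.7% and 67.9% in control. There was no overlap, with a mean of 39.6% ± 3.7 in cKO and 60.1% ± 6.9 in control (SD, n = 3 each). Its skipping junction had 490, 251 and 469 reads in cKO and 275, 258 and 121 reads in control, and an edgeR adjusted p of 0.21. The 27-base exon near the other end of the transcript, at chr1:93034546-93034572, stood the other way, with 30.3%, 24.7% and 27.9% in cKO and 15.6%, 19.6% and 23.4% in control (adjusted p = 0.82 for its skipping junction). It has its skipping junction in common with the 24-base exon, so the reads were also divided among the 3 forms. The 27-base exon then took 20.5% ± 1.8 in cKO and 15.0% ± 2.2 in control (SD, n = 3 each), without overlap. The 24-base exon took 25.5% ± 1.7 in cKO and 22.6% ± 4.5 in control, and the form with neither 53.9% ± 3.1 in cKO and 62.4% ± 6.7 in control (SD, n = 3 each), both with overlap. Kif1a thus had 2 exons of 27 bases with opposite differences while its total level differed by 0.01 on the log2 scale.

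The exon of Kif13b had an inclusion of 61.3%, 63.2% and 69.5% in cKO and of 51.1%, 22.6% and 25.3% in control. The groups did not overlap, and the control libraries spread widely, with control replicate 1 far above the others. The counts behind it were small, with 30, 16 and 16 skipping reads in cKO and 22, 48 and 34 in control, and the adjusted p was 0.67. The 39-base exon of Kif21a at chr15:90976471-90976509 had an inclusion of 66.1%, 67.3% and 48.1% in cKO and of 41.8%, 42.8% and 43.4% in control (adjusted p = 0.23). The control libraries were nearly level, and cKO replicate 3 lay close to them. An exon of 180 bases in Kif21b had 32.5%, 41.3% and 54.9% in cKO and 55.0%, 69.6% and 57.8% in control, a near overlap. Its left junction had 54, 81 and 65 reads in cKO and 56, 72 and 47 reads in control, and its right junction 29, 12 and 8 reads in cKO and 27, 24 and 16 reads in control. The 9-base exon of Kif3a had 28.1%, 27.8% and 29.0% in cKO, within the control values of 34.3%, 23.1% and 24.9%.

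**Figure D4:**
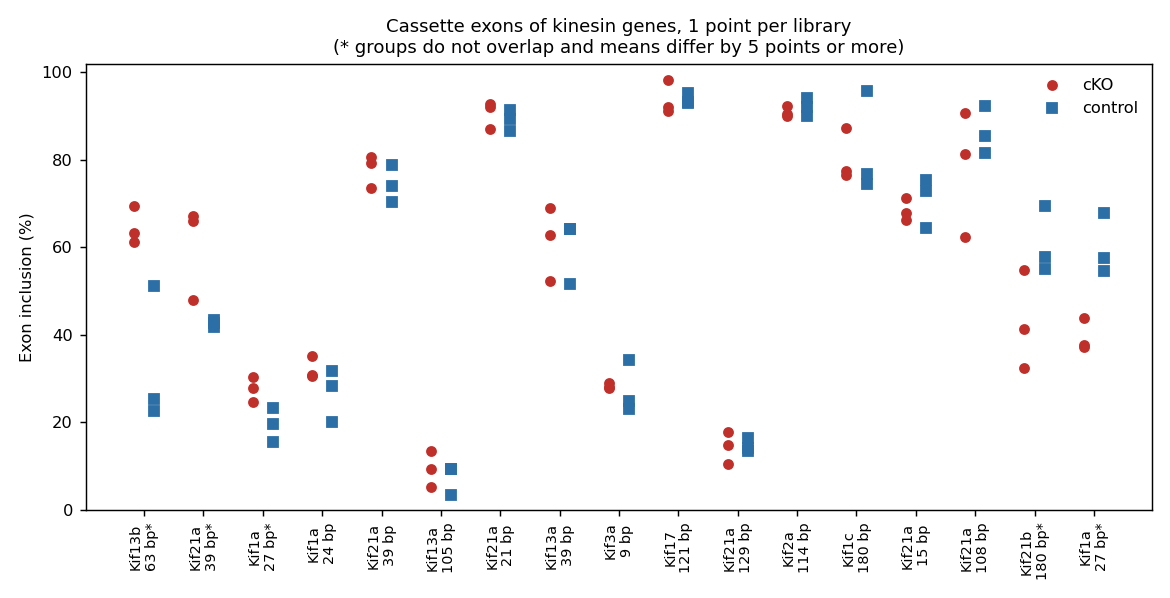
Inclusion in percent of the 17 cassette exons of kinesin genes, 1 point per library, with cKO as red circles left of control as blue squares, ordered from the highest to the lowest difference of cKO minus control. The 5 exons with an asterisk have groups that do not overlap and means at least 5 points apart, among them Kif13b (64.7% in cKO and 33.0% in control) at the left end and the Kif1a exon with 39.6% in cKO and 60.1% in control at the right end.

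Junctions outside the annotation were rare in the kinesin genes. They took 0.395%, 0.364% and 0.368% of the junction reads of the 31 genes in cKO and 0.333%, 0.425% and 0.304% in control, with overlap of the groups. Over all listed junctions they took 2.13%, 2.03% and 2.04% in cKO and 1.52%, 1.98% and 1.69% in control. The kinesin set was limited to junctions inside a gene on its strand. All listed junctions were not limited in this way, so their shares, here and below, are not of a like set. Of 392 unannotated junctions in kinesin genes, 9 had reads in all 3 cKO libraries and in no control library, or 2.30%, where 2.11% of all 226194 unannotated junctions did so. None had reads in all 3 control libraries and in no cKO library, where 0.333% of all did so. The 9 lay in 7 genes, Kif1a and Kif3b with 2 each and Kif2a, Kif3a, Kif3c, Kif5c and Kif13a with 1 each. All but Kif2a are transport motors, the class with most of the reads.

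The junction with the most reads was in Kif3b, where the last intron ended 426 bases inside the last exon in 4, 29 and 14 reads in cKO and in no read in control. The annotated form of that intron had 541, 609 and 724 reads in cKO and 461, 557 and 342 reads in control. It also had the smallest adjusted p of any kinesin junction (0.059). In Kif5c an acceptor inside an intron was used in 16, 17 and 6 reads in cKO and in none in control, beside 6093, 4558 and 4798 reads in cKO and 5264, 3941 and 4404 reads in control over the annotated intron. In Kif13a an acceptor 168 bases upstream of the annotated one, a multiple of 3, had 5, 3 and 22 reads in cKO and none in control. In Kif1a an acceptor 34 bases upstream of the annotated one, which is not a multiple of 3, had 2, 3 and 33 reads in cKO and none in control. In Kif3a a junction of annotated ends that skips an exon had 5, 10 and 16 reads in cKO and none in control. Each of these junctions carried a small share of the reads that use the same donor or acceptor cluster, with a mean share in cKO of 2.39% in Kif3b, 1.43% in Kif13a, 0.49% in Kif3a, 0.25% in Kif5c and 0.22% in Kif1a.

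Pairs of unannotated junctions that enclose a possible new exon inside an annotated intron were counted by the reads of either side. Pairs with reads in every cKO library and in no control library numbered 3 in the kinesin genes and 1347 over all junctions. Pairs with reads in every control library and in no cKO library numbered 0 in the kinesin genes and 53 over all junctions. The total of such pairs was not counted, so no share is given. In Kif2a the pair enclosed 75 bases at chr13:106970610-106970684 and had no read in control. In cKO its left junction had 17, 0 and 21 reads and its right junction 4, 3 and 10 reads. In Kif3b the pair enclosed 361 bases at chr2:153326008-153326368, with 1, 5 and 1 left and 8, 0 and 8 right reads in cKO and none in control. The right junction of the Kif2a pair and the left junction of the Kif3b pair are also among the cKO-only junctions counted above. In Kif5c the pair enclosed 65 bases with 1, 2 and 0 left and 0, 0 and 1 right reads in cKO and none in control, so no library had reads on both sides. The annotated intron around the Kif2a pair had 787, 599 and 806 reads in cKO and 720, 726 and 646 reads in control.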

How the data were processed

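Per the labels' protocols, a NuGEN kit amplified cDNA from 10 ng of RNA, so reads are not independent molecules. Intervals of fold changes come from the spread between libraries in the edgeR fit. The authors deposited raw counts per gene for the 6 libraries and, per the file headers, TopHat junction lists that count the reads spanning each junction. The submitters' processing notes name TopHat2 2.1.0, HTSeq 0.6.0 and mm10. The sources used here do not give the annotation or the strand setting behind the counts. Of the 31 kinesin genes, 11 overlap an antisense gene and 3 a gene on the same strand.

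Genes of the whole table were filtered by filterByExpr, scaled by TMM and compared by the quasi-likelihood test of edgeR 4.0.16 (R 4.3.3), with Benjamini-Hochberg adjustment over the 16067 genes kept and a threshold of 0.05. Junctions read in at least 2 libraries, with 10 or more reads in all, were tested with diffSpliceDGE against those sharing a donor or acceptor, over 112047 junctions. Levels per kb use GENCODE M21 exon lengths. DESeq2 1.42.0, limma-voom (limma 3.58.1), other scalings, filters and count minimums, a replicate block and each library left out were alternatives.

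The labels do not say how the animals were paired, and the counts did not settle whether replicate numbers pair the libraries. The genes named were every called member, the 5 transport and 3 mitotic motors with the highest level per kb in control, and of each companion list the called genes or, with none called, the 2 with the highest level. Others were chosen after their values were seen. The members and lists were chosen with earlier results of these data known. Of the listed symbols 216 were matched to the table, 5 through an older symbol, and 4 were not.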

Additional observations from a re-analysis of the deposited data

How the results depend on the processing

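No kinesin junction was called under any setting run. Without 1 library the transport median ran from -0.07 to 0.07 and the mitotic median from 0.20 to 0.44 (0.44 without control replicate 3). Kinesin genes called higher numbered 1 with the replicate block (Kif1c, adjusted p = 0.031) and 2 with DESeq2, and called lower 1 with DESeq2; without 1 library either count ran from 0 to 1, and both were 1 without control replicate 3 (Kif1c and Kif3c). Companion genes called higher numbered 1 with upper-quartile scaling, 1 with a filter of at least 50 counts in 3 libraries, 2 with the replicate block and 3 with DESeq2, and called lower 3 with the replicate block and 3 with DESeq2; without 1 library the lower count ran from 0 (without cKO replicate 3 or control replicate 2) to 3 (without control replicate 3). The log2 fold change of Kif3a, -0.01 as reported, turned to 0.018 with upper-quartile scaling, 0.0026 with the filter of 50 counts, 0.0073 with the replicate block and 0.0089 with limma-voom. Without 1 library it ran from -0.18 to 0.25, that of Kif1a from -0.12 to 0.19, of Kif5a from -0.054 to 0.062, of Kif5c from -0.14 to 0.075 of Kif20a from -0.32 to 0.16, of Kif3c from -0.56 to -0.26, of Kif17 from -0.39 to -0.17, of Kif1c from 0.36 to 0.62, of Kif11 from 0.05 to 0.29 and of Kif22 from 0.65 to 0.81. The causes were not tested. The deviations of libraries with the same number had correlations of 0.238, -0.014 and 0.052. Replicate 1 of cKO correlated best with control replicate 1, but cKO replicate 2 correlated best with control replicate 3 (0.231). The replicate block called 1734 of all genes, against 1265 as reported. Whether the numbers pair the libraries was therefore not settled. A minimum mean of 10 or 200 counts gave 35 or 25 kinesin genes, none called, and a mitotic median of 0.72 or 0.022.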
